A study of Homo sapiens with 6 samples.

Results

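The cholesterol and fatty acid synthesis genes are 40 named genes that take acetyl-CoA to cholesterol or to fatty acids and glycerolipids, with the factors that control them. They were listed by name, with earlier results of these data known, and each was present among the 27914 genes of the deposited expression table. The sterol arm holds 21 of them and the fatty acid arm 19. Of the 40, 38 reached a mean of 1 TPM (a length-corrected share of the transcripts in a library) and were tested, 20 in the sterol arm and 18 in the fatty acid arm. TM7SF2 and ACACB lay below that level.

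RNA was sequenced from 6 samples of MCF10A, a mammary epithelial line of human origin that is immortal but does not form tumours, with 3 libraries a group. The genotype of the first group is written α-/-;βin, here called PI5P4K-depleted cells, and the second is the SCRin control, labelled wild-type. Cells of both groups were treated with doxycycline for 3 days. PI5P4Ks are lipid kinases that phosphorylate PI-5-P, and the Greek letters were taken to stand for the genes PIP4K2A and PIP4K2B. The labels do not expand "in" or SCR. They do not say whether the α-/- cells derive from 1 clone or the replicates from separate cultures, so p-values measure a spread that may be technical. The question asked of the data is how transcripts differ between these groups.

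Cells make cholesterol from acetyl-CoA through mevalonate, farnesyl pyrophosphate, squalene and lanosterol. Fatty acids are built by carboxylation of acetyl-CoA to malonyl-CoA and repeated condensation, then desaturated, elongated and joined to glycerol. Both routes are controlled by SREBP transcription factors, which are made as membrane proteins of the endoplasmic reticulum and are released by proteolysis when sterols are low. SREBF2 encodes the form that acts mainly on sterol genes, SREBF1 the forms that act mainly on fatty acid genes, and INSIG1 encodes a protein that holds the precursors in the endoplasmic reticulum.

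The libraries of the series were alike, with Spearman correlations over all genes of 0.956 to 0.959 within PI5P4K-depleted cells, 0.954 to 0.957 within controls and 0.950 to 0.958 between the groups. PIP4K2A, the α kinase gene, measured 4.09, 4.16 and 4.35 TPM in PI5P4K-depleted libraries and 19.8, 20.2 and 21.7 TPM in controls, and PIP4K2B, the β kinase gene, 8.20, 8.69 and 11.6 TPM against 20.8, 23.1 and 21.4 TPM. All 10 epithelial markers exceeded 1 TPM on average, with summed levels of 2955 to 3505 TPM in PI5P4K-depleted libraries and 2128 to 3072 TPM in controls. Of 8 adipocyte markers, PPARG alone reached 1 TPM, and ADIPOQ, LEP, CIDEA and LPL were listed at 0 in all 6 libraries. The whole list summed to 11.96 to 14.5 TPM in PI5P4K-depleted libraries and 12.4 to 21.8 TPM in controls. Fibroblast markers summed to 2.73 to 6.13 TPM against 1.96 to 6.32 TPM. Of these 7, COL1A1 and DCN averaged at least 1 TPM, and COL3A1 was at 0 throughout. Leukocyte markers summed to 43.5 to 45.8 TPM against 42.9 to 47.7 TPM. Of these 6, CD14 and CD68 averaged at least 1 TPM, and PTPRC was at 0 in every library. Runs of neighbouring genes on chromosomes 7 and 3 were treated as lowered in PI5P4K-depleted cells. The bounds of these runs were chosen with earlier results of these data known, and their lowering is not shown here. Genes between the bounds were included by position and not by the value of each gene. The runs span 541 genes, of which 264 were tested, and 0 of the 40 genes lie in them.

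The promoters of 5 of the genes are shown because they carry the sequence elements through which SREBPs and their partners are known to act, and because the first 4 are sterol genes whose levels are compared between libraries further on. The sequences come from RefSeq, build GRCh38.p14, and run 5′ to 3′ on the strand of the gene from 250 bases before to 50 bases after the transcription start. Capitals mark matches on either strand to TCACNCCAC, the core of a sterol regulatory element, or to CCAAT, the box bound by NF-Y, whose reverse complement is ATTGG.
SREBF2, chr22:41832855-41833154, plus strand: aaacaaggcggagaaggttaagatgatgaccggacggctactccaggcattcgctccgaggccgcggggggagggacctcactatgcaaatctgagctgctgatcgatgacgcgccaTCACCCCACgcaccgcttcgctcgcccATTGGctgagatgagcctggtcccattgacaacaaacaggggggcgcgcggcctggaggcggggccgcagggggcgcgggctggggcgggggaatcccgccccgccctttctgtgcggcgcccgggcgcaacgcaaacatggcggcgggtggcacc
INSIG1, chr7:155297628-155297927, plus strand: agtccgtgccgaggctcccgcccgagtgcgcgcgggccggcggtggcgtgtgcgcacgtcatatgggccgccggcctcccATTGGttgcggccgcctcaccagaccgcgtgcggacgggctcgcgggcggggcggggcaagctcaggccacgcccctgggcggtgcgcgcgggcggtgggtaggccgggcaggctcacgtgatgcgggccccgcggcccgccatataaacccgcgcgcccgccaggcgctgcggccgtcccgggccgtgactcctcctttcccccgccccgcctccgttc
HMGCS1, chr5:43313363-43313662, minus strand, 1 of 2 listed starts: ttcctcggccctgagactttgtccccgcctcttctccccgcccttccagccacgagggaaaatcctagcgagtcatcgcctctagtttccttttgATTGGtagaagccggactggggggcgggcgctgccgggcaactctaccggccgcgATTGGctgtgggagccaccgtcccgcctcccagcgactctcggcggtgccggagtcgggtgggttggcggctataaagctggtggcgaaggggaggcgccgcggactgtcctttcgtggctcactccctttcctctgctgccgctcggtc
MVD, chr16:88663042-88663341, minus strand: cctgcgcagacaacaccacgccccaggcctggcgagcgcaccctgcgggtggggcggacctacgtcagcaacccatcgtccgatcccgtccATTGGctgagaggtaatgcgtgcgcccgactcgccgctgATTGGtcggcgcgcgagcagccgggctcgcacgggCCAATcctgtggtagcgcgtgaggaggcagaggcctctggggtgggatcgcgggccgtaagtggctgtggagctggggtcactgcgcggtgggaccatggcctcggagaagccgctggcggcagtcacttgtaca
ACSL1, chr4:184805504-184805803, minus strand, 1 of 5 listed starts: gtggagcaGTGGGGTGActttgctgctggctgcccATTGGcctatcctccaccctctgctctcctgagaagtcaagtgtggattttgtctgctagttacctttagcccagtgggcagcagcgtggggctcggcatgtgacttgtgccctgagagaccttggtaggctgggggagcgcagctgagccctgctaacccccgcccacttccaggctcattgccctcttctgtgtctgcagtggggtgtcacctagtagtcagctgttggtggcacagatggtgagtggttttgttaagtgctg
In SREBF2 the sterol regulatory element core begins at position -133 from the transcription start and is followed by a CCAAT box at -106. In the ACSL1 window shown, the core begins at -242 and the box at -215. HMGCS1 has CCAAT boxes at -155 and -100 in the window shown and 0 in that of its other listed start. MVD has them at -159, -120 and -85, and INSIG1 has 1 at -170.

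Promoter sequences were matched for 18 sterol and 16 fatty acid genes, and a gene was counted if any of its listed starts held the motif on either strand. CCAAT was present in 16 of the 18 sterol genes (88.9%) and in 10 of the 16 fatty acid genes (62.5%), against 43.7% of 9326 tested genes with a promoter. The Sp1 box GGGCGG was present in 17 sterol genes (94.4%) and 15 fatty acid genes (93.8%), against 78.0% of tested genes. TCACNCCAC was held by SREBF2 and ACSL1 alone among the matched members, or 5.56% and 6.25% of the arms, against 1.44% of tested genes. The E-box CACGTG was found in 3 sterol genes and 1 fatty acid gene (16.7% and 6.25%), against 12.8% of tested genes. These are matches of letters within 300 bases and say nothing about binding.

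The members stood at very different levels. The values are TPM, which corrects for transcript length, so genes can be compared. In the sterol arm the most abundant was FDPS, which makes farnesyl pyrophosphate, at 353 ± 72.5 TPM in PI5P4K-depleted cells and 353 ± 85.8 TPM in controls (SD, n = 3 each). MSMO1, the sterol C4-methyl oxidase, followed at 221 ± 46.9 and 241 ± 62.9 TPM, SQLE, the squalene epoxidase, at 215 ± 65.8 and 190.4 ± 37.9 TPM, and FDFT1, the squalene synthase, at 199 ± 43.4 and 192 ± 32.4 TPM. FDPS exceeded MSMO1 by more than the SD of either in both groups, whereas SQLE and FDFT1 differed by less than the SD of either. The other tested sterol genes averaged between 20.4 and 169.9 TPM in PI5P4K-depleted cells and between 20.99 and 171 TPM in controls. In the fatty acid arm ACLY, which makes cytosolic acetyl-CoA from citrate, led at 138 ± 15.1 and 133 ± 15.6 TPM, ahead of SCD, the stearoyl-CoA desaturase, at 124 ± 23.2 and 114 ± 17.8 TPM and ACSL3, an acyl-CoA synthetase, at 123 ± 19.2 and 117 ± 16.2 TPM. SCD and ACSL3 differed by less than the SD of either in both groups. ELOVL5, an elongase, measured 109 ± 9.50 and 119 ± 5.57 TPM, which was below both in PI5P4K-depleted cells and above both in controls.

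At the low end, TM7SF2, a sterol C14 reductase, measured 0.564, 1.16 and 0.993 TPM in PI5P4K-depleted libraries and 0.102, 0.749 and 0.700 TPM in controls. ACACB, the acetyl-CoA carboxylase of mitochondria, measured 0.522, 0.559 and 0.937 TPM against 0.359, 0.599 and 1.11 TPM, whereas ACACA, its cytosolic counterpart, measured 22.9 ± 2.62 and 24.6 ± 2.71 TPM (SD, n = 3 each). The groups overlapped for both low genes.

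**Figure D1:**
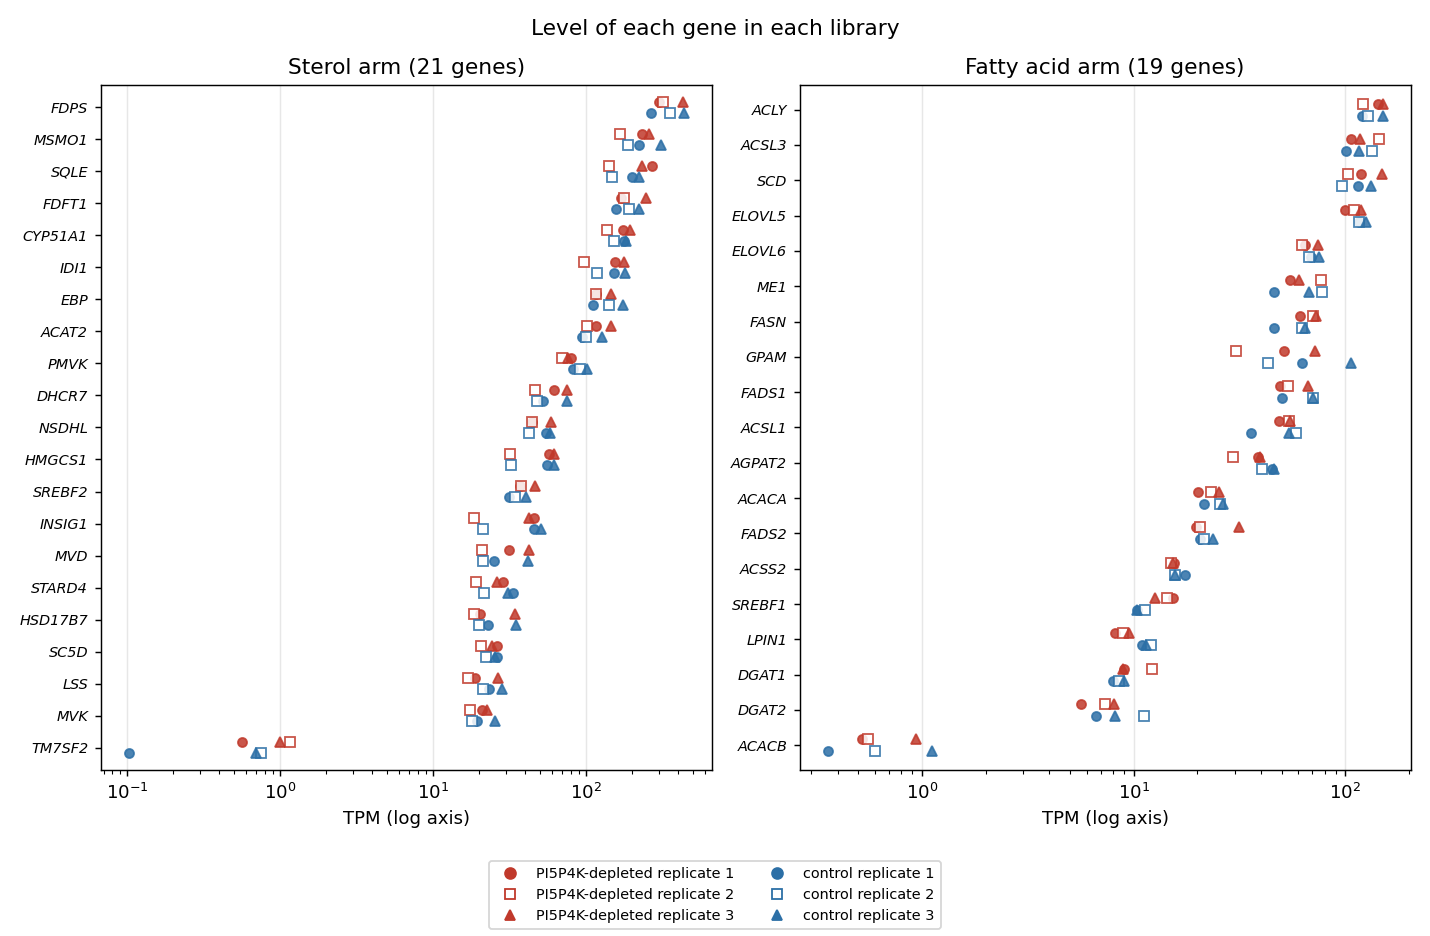
Level of each of the 40 genes in each library, in TPM on a log axis, with the sterol arm at left and the fatty acid arm at right. Red marks above are PI5P4K-depleted libraries, blue marks below are controls, and the shape gives the replicate number. The 2 colours overlap for most genes, and the open squares of replicate 2 lie at the left for sterol genes such as INSIG1, HMGCS1 and IDI1.

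No gene of either pathway was called between the groups. Of the 38 tested members 0 passed the threshold (limma adjusted p below 0.05), where 2.19% of all 12096 tested genes did. At an unadjusted p below 0.05 there were 3 members, SREBF1 higher and PMVK and LPIN1 lower in PI5P4K-depleted cells, against 11.9% of all tested genes. Both counts are near the background. That background takes in the 264 tested genes of the lowered runs, in which 0 of the 40 genes lie. Without the genes of those runs 44 genes were called, against 265 with them. The median log2 change (PI5P4K-depleted minus control, on the log2(TPM + 1) scale) was -0.04 in the sterol arm and -0.02 in the fatty acid arm, beside -0.01 over all tested genes. In the sterol arm 8 genes had a change above 0 and 12 below, and in the fatty acid arm 9 and 9. The difference between the arms, -0.02, was smaller than the shift from leaving out single libraries, which moved it between -0.11 and 0.16. The sterol median itself moved between -0.15 and 0.10 when single libraries were left out, and was 0.09 without PI5P4K-depleted replicate 2 and 0.10 without control replicate 3. Summed over the tested genes, the sterol arm reached 2009 ± 377 TPM in PI5P4K-depleted cells and 2031 ± 354 TPM in controls, and the fatty acid arm 991 ± 84.3 and 1005 ± 105 TPM (SD, n = 3 each).

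How large a change could have gone unseen in the fit without replicate numbers follows from its intervals. The 95% interval of the change lay within 1.5-fold in either direction for 10 of 20 sterol genes and 12 of 18 fatty acid genes. It lay within 2-fold for 19 and 17 of them, and the exceptions were INSIG1 (-1.15 to 0.86 on the log2 scale) and GPAM (-1.37 to 0.50). For FDPS it ran from -0.49 to 0.51 and for HMGCS1 from -0.73 to 0.77. Differences shared by same-numbered libraries of both groups widen these intervals. With the replicate number as a block, the SE of INSIG1 was 0.07, against 0.43 without it. The labels do not say that numbers pair samples.

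**Figure D2:**
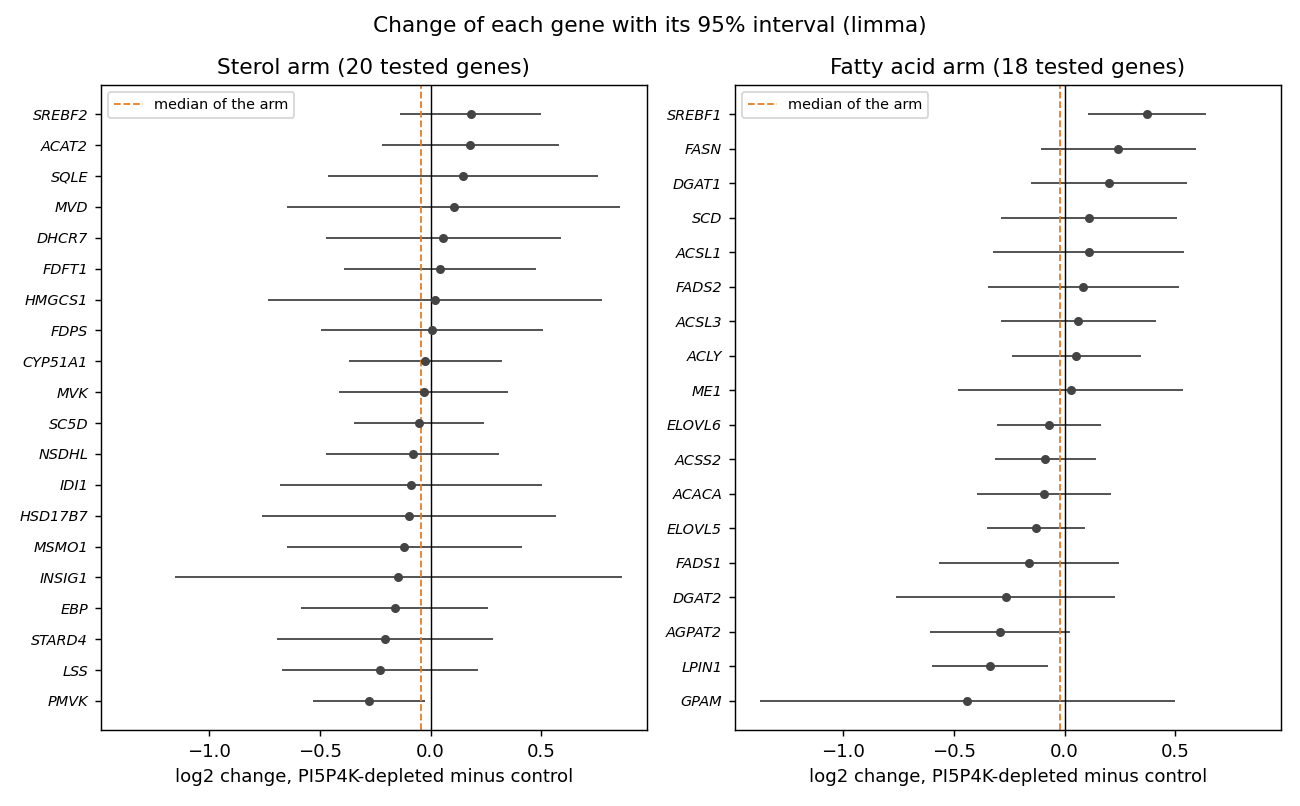
Log2 change of each tested gene, PI5P4K-depleted minus control, with its 95% interval from limma (3 libraries a group), sorted within each arm. Dashed lines mark the medians of the arms, -0.04 and -0.02, and the intervals of SREBF1, LPIN1 and PMVK do not include 0 before adjustment.

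In the mevalonate segment, which runs from acetoacetyl-CoA to farnesyl pyrophosphate, the group means lay close together while libraries of a group lay far apart. HMGCS1, which makes HMG-CoA, measured 57.9, 32.1 and 62.3 TPM in PI5P4K-depleted replicates 1 to 3 and 55.7, 32.4 and 61.7 TPM in the controls (log2 change 0.02, SE 0.32, limma adjusted p = 0.992). MVD, the mevalonate pyrophosphate decarboxylase, measured 31.7, 20.9 and 42.5 TPM against 25.1, 21.3 and 42.1 TPM. Both genes had their lowest value in replicate 2 and their highest in replicate 3 of each group, and the groups overlapped. IDI1, the isopentenyl pyrophosphate isomerase, measured 156, 96.8 and 178 TPM in PI5P4K-depleted libraries and 153, 118 and 179.5 TPM in controls. MVK, the mevalonate kinase, followed the same order of libraries over a smaller range, from 17.4 to 22.7 TPM in PI5P4K-depleted cells and from 17.9 to 25.6 TPM in controls. ACAT2, the cytosolic thiolase at the head of the route, averaged 122 ± 23.2 and 107 ± 17.5 TPM (SD, n = 3 each; log2 change 0.18, adjusted p = 0.770). Its gene overlaps TCP1 and SOD2 in the RefSeq annotation, and TCP1 measured 386 and 400 TPM on average. Reads from a stretch shared by 2 genes could not be told apart if strand was ignored. The length of the overlap, and whether it takes in exons, was not examined. The same holds for IDI1 with WDR37, MVK with MMAB and DGAT1 with HSF1.

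PMVK, the phosphomevalonate kinase, was the sterol gene whose groups did not overlap. It measured 80.3, 69.7 and 76.1 TPM in PI5P4K-depleted libraries and 82.4, 91.3 and 102 TPM in controls. Every PI5P4K-depleted library lay below every control. The level was 82.1% of control (log2 change -0.28, SE 0.11, 95% interval -0.53 to -0.03), and it missed the threshold (limma adjusted p = 0.364, 0.128 to 0.722 over the alternatives).

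From squalene to cholesterol no gene stood apart between the groups. SQLE measured 271, 143 and 233 TPM in PI5P4K-depleted libraries and 201, 149 and 222 TPM in controls (log2 change 0.15, SE 0.26, limma adjusted p = 0.906). Replicate 2 was the lowest of each group here too. LSS, the lanosterol synthase, averaged 20.8 ± 5.13 TPM in PI5P4K-depleted cells and 24.3 ± 3.70 TPM in controls (SD, n = 3 each; log2 change -0.23, SE 0.19). EBP, the sterol isomerase, measured 116, 118 and 147 TPM against 112, 142 and 177 TPM (log2 change -0.16, SE 0.18). The later steps are carried by CYP51A1, the lanosterol 14-demethylase, NSDHL and HSD17B7, which remove the C4 methyl groups, SC5D, the C5 desaturase, and DHCR7, the last reductase. Their log2 changes, with those of FDFT1 and MSMO1, lay between -0.12 and 0.06 with SE of 0.12 to 0.28. HSD17B7P2, a pseudogene copy of HSD17B7, reached 0.172 and 0.0311 TPM in PI5P4K-depleted replicates 1 and 2 and was listed at 0 in the other 4 libraries.

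The regulators of the sterol route gave no call. SREBF2 measured 37.3, 37.6 and 46.6 TPM in PI5P4K-depleted libraries and 31.7, 34.5 and 40.7 TPM in controls (log2 change 0.18, SE 0.13, limma adjusted p = 0.695). INSIG1 measured 46.1, 18.7 and 42.5 TPM against 46.1, 21.4 and 50.7 TPM (log2 change -0.15, SE 0.43). STARD4, a sterol transfer protein, measured 28.6, 19.2 and 26.2 TPM against 33.4, 21.6 and 31.0 TPM (log2 change -0.21, SE 0.21). For INSIG1 and STARD4, replicate 2 of both groups lay below the other libraries, while SREBF2 was lowest in replicate 1.

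In the fatty acid arm, SREBF1 was the member with the lowest unadjusted p. It measured 15.3, 14.4 and 12.7 TPM in PI5P4K-depleted libraries and 10.3, 11.3 and 10.3 TPM in controls, so that each PI5P4K-depleted library lay above each control. The level was 132% of control (log2 change 0.37, SE 0.11, 95% interval 0.11 to 0.64). It missed the threshold over all genes (limma adjusted p = 0.232, 0.0785 to 0.556 over the alternatives). RAI1, which overlaps SREBF1 in the RefSeq annotation, averaged 17.2 and 15.4 TPM (log2 change 0.15). Among the enzymes downstream, FASN, the fatty acid synthase, measured 61.1, 70.2 and 72.6 TPM against 46.1, 62.7 and 64.6 TPM (log2 change 0.24, SE 0.15, adjusted p = 0.619), and the groups overlapped. SCD had a log2 change of 0.11 (SE 0.17), ACLY of 0.05 (SE 0.12) and ACACA of -0.09 (SE 0.13).

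The desaturases and elongases, which shape chain length and double bonds, lay on both sides of 0. FADS1, the Δ-5 desaturase, measured 49.3, 53.9 and 66.5 TPM in PI5P4K-depleted libraries and 50.1, 70.7 and 70.1 TPM in controls, and FADS2, the Δ-6 desaturase, 19.7, 20.6 and 31.4 TPM against 20.6, 21.6 and 23.8 TPM. The RefSeq annotation has these genes overlapping. Their log2 changes were -0.16 and 0.09. ELOVL5 and ELOVL6 had log2 changes of -0.13 (SE 0.09) and -0.07 (SE 0.10). ME1, the malic enzyme that supplies NADPH, averaged 64.1 ± 11.5 and 63.7 ± 16.3 TPM (SD, n = 3 each), and replicate 2 held its highest value in both groups, 77.1 and 77.6 TPM, the reverse of the sterol genes. ACSS2, which makes acetyl-CoA from acetate, varied least, from 15.0 to 15.6 TPM in PI5P4K-depleted cells and from 15.7 to 17.6 TPM in controls. Its groups did not overlap, at a log2 change of -0.09 (SE 0.10, adjusted p = 0.816).

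The most negative changes of the arm were those of GPAM, LPIN1, AGPAT2 and DGAT2, all of glycerolipid synthesis, while DGAT1 of the same route had a change above 0. No such gene was called in the fit without replicate numbers. LPIN1, the phosphatidate phosphatase that yields diacylglycerol, measured 8.20, 8.90 and 9.56 TPM in PI5P4K-depleted libraries and 10.9, 12.04 and 11.4 TPM in controls, with no overlap. The level was 77.5% of control (log2 change -0.34, SE 0.11, 95% interval -0.60 to -0.07, limma adjusted p = 0.282, 0.0942 to 0.584 over the alternatives). AGPAT2, which makes phosphatidate, measured 38.6, 29.4 and 39.5 TPM against 45.0, 40.6 and 45.9 TPM, also with no overlap (log2 change -0.29, SE 0.13, adjusted p = 0.464). GPAM, the mitochondrial acyltransferase that begins the route, measured 51.1, 30.4 and 72.3 TPM against 62.2, 43.0 and 106 TPM. It had the most negative change of all members, -0.44, with an SE of 0.40, and libraries within each group differed by more than the groups did. The change was -0.11 without PI5P4K-depleted replicate 2 and -0.10 without control replicate 3. GPAM was called in 1 of the 14 alternatives, which held the replicate number as a block (limma adjusted p = 0.0265). The labels do not pair samples by number. DGAT2 and DGAT1, which make triglyceride, had log2 changes of -0.27 (SE 0.21) and 0.20 (SE 0.15). ACSL1 and ACSL3, which activate fatty acids, had changes of 0.11 (SE 0.18) and 0.06 (SE 0.15).

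Counted over both arms, the groups did not overlap with PI5P4K-depleted cells higher for 1 member, SREBF1, where 5.64% of all tested genes did so. With PI5P4K-depleted cells lower there were 4 members, PMVK, ACSS2, LPIN1 and AGPAT2, where 11.4% of tested genes did so. The second count is close to the background and the first is below it. Both shares take in the tested genes of the lowered runs, which hold 0 members, and were not computed without them.

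The larger differences among these genes were between libraries of the same group. The SD within groups on the log2 scale had a median of 0.29 over the 20 sterol genes and 0.19 over the 18 fatty acid genes, beside 0.18 over all tested genes and 0.15 over the 5442 tested genes between 20 and 300 TPM. INSIG1 had an SD of 0.68, above that of 96.1% of tested genes, GPAM 0.63 (95.6%), HMGCS1 0.50 (92.8%), MVD 0.50 (92.7%), HSD17B7 0.43 (90.3%) and SQLE 0.40 (88.6%). At the other end ACSS2, with 0.06, exceeded 4.74% of tested genes and LPIN1, with 0.08, exceeded 10.5%. INSIG1 spanned 2.47-fold from its lowest to its highest PI5P4K-depleted library and 2.36-fold among controls, and GPAM 2.37-fold and 2.47-fold.

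This spread was shared by the sterol genes. The level of the arm was taken as the median over its genes of log2(TPM + 1) minus each gene's mean over the 6 libraries. It was 0.05, -0.31 and 0.26 in PI5P4K-depleted replicates 1 to 3 and -0.01, -0.21 and 0.31 in control replicates 1 to 3. In PI5P4K-depleted replicate 2 all 20 sterol genes lay below their own mean and in control replicate 2 16 did, whereas 1 did in PI5P4K-depleted replicate 3 and 0 in control replicate 3. The fatty acid arm followed another order, at -0.12, -0.07 and 0.08 in PI5P4K-depleted replicates and -0.15, 0.02 and 0.12 in controls. It was lowest in replicate 1 of both groups, and highest in replicate 3 as the sterol arm was. Over all tested genes the level was 0.02 in PI5P4K-depleted replicate 2 and 0.07 in control replicate 2, so that the sterol genes were low there against a general level that was not. In summed TPM of the tested sterol genes, the PI5P4K-depleted libraries reached 2013, 1629 and 2384 TPM and the controls 1862, 1792 and 2438 TPM.

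**Figure D3:**
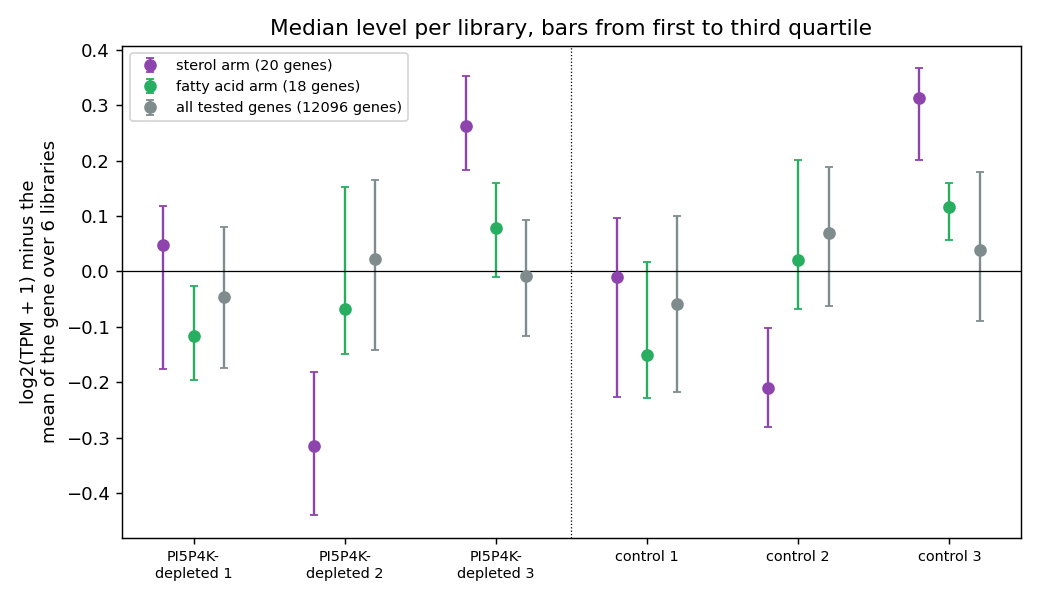
Median level of the sterol arm, the fatty acid arm and all tested genes in each library, on the log2(TPM + 1) scale relative to each gene's mean over the 6 libraries, with bars from the first to the third quartile over genes. The sterol arm is at -0.31 and -0.21 in replicate 2 of the PI5P4K-depleted and control groups and at 0.26 and 0.31 in replicate 3.

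Replicate 2 was the lowest library of both groups for 14 of 20 sterol genes (70.0%) and 4 of 18 fatty acid genes (22.2%), beside 16.4% of all tested genes. The 6 sterol genes without this pattern were PMVK, FDPS, FDFT1, EBP, SREBF2 and ACAT2, and the 4 fatty acid genes with it were SCD, ELOVL6, GPAM and AGPAT2. Relative to the mean of replicates 1 and 3, replicate 2 was lower by more than 0.5 on the log2 scale in both groups for 4 sterol genes (20%) and 1 fatty acid gene (5.56%), against 2.66% of all tested genes. These were INSIG1, with differences of -1.20 in PI5P4K-depleted cells and -1.14 in controls, HMGCS1 (-0.88 and -0.84), MVD (-0.78 and -0.59), SQLE (-0.81 and -0.50) and GPAM (-0.97 and -0.90). Differences above 0 in both groups were held by fatty acid genes such as ME1 (0.42 and 0.47), ACSL3 (0.36 and 0.30) and ACSL1 (0.07 and 0.40), and by 0 sterol genes. The promoters printed above include INSIG1, HMGCS1 and MVD of the first kind, each with at least 1 CCAAT box. They also include ACSL1 of the second, with a CCAAT box in the window shown. At its other listed starts ACSL1 held 0 such boxes. ME1, also of the second kind, held 0 and ACSL3 held 1, while GPAM, of the first kind, held 1. The box was present in 88.9% of sterol, 62.5% of fatty acid and 43.7% of tested genes. Whether it goes with either kind was not tested.

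The labels give a replicate number and no culture, day or batch for it. Across all tested genes, the deviations of same-numbered libraries from their group means had correlations of 0.25 for number 1, 0.27 for number 2 and -0.02 for number 3. Between libraries of different number they ran from -0.29 to 0.05. Numbers were not taken as pairs, because the labels do not pair them and number 3 did not correlate over all tested genes. In the sterol arm alone, replicate 3 was the highest library of both groups, at levels of 0.26 and 0.31. A factor shared by same-numbered libraries was not tested. Short RNA genes took 7.29% of the TPM in PI5P4K-depleted replicate 2 and 7.47% in control replicate 2, the lowest shares of each group, against 7.97% and 8.04% in the other PI5P4K-depleted libraries and 8.34% and 8.60% in the other controls. Their part in the replicate pattern was not tested. The values are from bulk RNA, in which a smaller share of cells with a transcript and less of it per cell cannot be told apart.

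**Figure D4:**
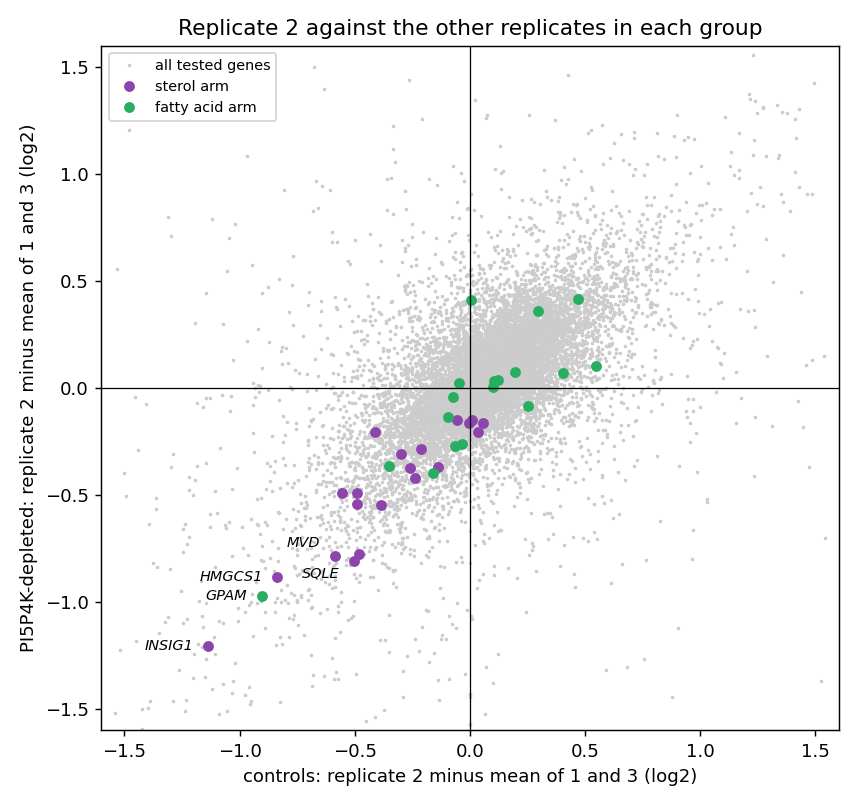
Difference between replicate 2 and the mean of replicates 1 and 3 on the log2(TPM + 1) scale, for PI5P4K-depleted cells on the vertical axis and controls on the horizontal axis, with 1 point per tested gene. Grey points are all tested genes (245 lie outside the plotted range of 1.6 in either direction), purple points sterol genes and green points fatty acid genes, and the named genes, INSIG1, GPAM, HMGCS1, MVD and SQLE, were lower by more than 0.5 in both groups.

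Other genes of lipid metabolism, taken from lists of general knowledge, gave 0 calls in either direction in every list, where 2.19% of all tested genes were called. The list of SREBP processing factors, which includes SCAP, the escort protein of SREBPs, and the site-1 and site-2 proteases, had 14 tested members and a median log2 change of 0.04 (range -0.32 to 0.30). TMED2, a coat receptor of the early secretory route and the most abundant of them, measured 347 ± 18.3 TPM in PI5P4K-depleted cells and 382 ± 20.9 TPM in controls (SD, n = 3 each). Other isoprenoid and sterol branch enzymes had a median of -0.01 over 13 genes, and FNTA, a prenyltransferase subunit and the most abundant, measured 119 ± 5.82 and 123 ± 9.84 TPM. Genes of sterol uptake, transport and esterification had a median of -0.02 over 15 genes, led by NPC2, a lysosomal sterol carrier, at 233 ± 23.8 and 218 ± 18.4 TPM. Liver X receptors and their targets had a median of -0.03 over 7 genes, led by NR1H2, a liver X receptor, at 37.9 ± 1.33 and 34.5 ± 4.56 TPM.

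On the fatty acid side, the remaining synthesis, elongation and desaturation genes had a median of -0.09 over 19 genes, with ACSL4, an acyl-CoA synthetase, at 110 ± 5.41 TPM in PI5P4K-depleted cells and 109 ± 4.93 TPM in controls. The remaining glycerolipid and lipid droplet genes had a median of -0.12 over 20 genes, of which 5 had a change above 0, and PLIN3, a lipid droplet coat protein, measured 106 ± 16.2 and 128 ± 16.2 TPM. Fatty acid oxidation genes had a median of -0.02 over 21 genes, with HADHA, a subunit of the mitochondrial trifunctional protein, at 241 ± 5.09 and 245 ± 7.51 TPM.

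Some genes of these lists, chosen after their values were seen, had groups that did not overlap although they missed the threshold. Each list, of 7 to 21 tested genes, held 0 to 2 such genes higher and 0 to 4 lower in PI5P4K-depleted cells. Over all tested genes the shares were 5.64% and 11.4%. SCD5, a second stearoyl-CoA desaturase, measured 18.99, 11.6 and 12.2 TPM in PI5P4K-depleted libraries and 7.40, 3.62 and 6.34 TPM in controls (log2 change 1.18, limma adjusted p = 0.102). SCARB1, a lipoprotein receptor, measured 57.6, 82.8 and 73.1 TPM against 32.8, 53.9 and 46.8 TPM (log2 change 0.68, adjusted p = 0.240). MGLL, the monoglyceride lipase, measured 25.9, 13.6 and 24.3 TPM against 45.3, 29.1 and 43.7 TPM (log2 change -0.88, adjusted p = 0.240), and NR1H3, the other liver X receptor, 2.52, 2.89 and 2.01 TPM against 3.95, 5.57 and 4.00 TPM (log2 change -0.66, adjusted p = 0.216). MGLL and SCD5 were, like GPAM, lowest in replicate 2 of both groups, whereas SCARB1 was highest there.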

How the data were processed

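The authors deposited 1 table of TPM with 1 column for each of the 6 libraries. Per the submitters' processing notes the build was hg19, and DESeq2 is named there without its role. The sources used here do not give the aligner, quantification, annotation, strandedness or filters. Extraction used a Directzol kit and libraries were Illumina Tru-seq, per the labels' protocols. Control columns were matched by name and replicate number, and columns headed as the experiment went to the remaining group. TPM keeps no total, so depth is unknown.

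Genes that averaged 1 TPM or more were compared as log2(TPM + 1), which understates changes of low genes, with limma 3.58.1 in R 4.3.3 (mean-variance trend, two-sided, Benjamini-Hochberg over 12096 genes, threshold 0.05). The fit was tested on simulated data. Alternatives were a pseudocount of 0.1 TPM, other filters and scalings, no trend, a replicate block and leaving out each library. All 40 members are described. Of other lists, called genes or, with none, the most abundant was named, and 4 genes with extreme changes were added after their values were seen. Overlaps and promoters are from RefSeq GRCh38.p14, not the authors' build. Members, lists and alternatives were chosen with earlier results of these data known, and the replicate comparison after seeing the values.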

Additional observations from a re-analysis of the deposited data

How the results depend on the processing

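The 0 calls among the 38 tested members held under 13 of 14 alternatives, in which the lowest adjusted p of a member was 0.180. With the replicate number as a block (replicate block), 1 member was called, GPAM (log2 change -0.44, limma adjusted p = 0.0265, 0.0265 to 0.985 over its alternatives). The block also gave 1 call each for SREBP processing, isoprenoid and sterol branch, and sterol uptake genes, 2 each for the other fatty acid, other glycerolipid and fatty acid oxidation genes, and 881 over all genes, against 265 without it. The labels do not say that numbers pair samples, and over all tested genes same-numbered libraries did not correlate for number 3 (correlations 0.25, 0.27 and -0.02). Over all genes 44 were called when the genes of the lowered runs were left out, and between 106 and 219 when a library was left out (106 without control replicate 3, 119 without PI5P4K-depleted replicate 3, 163 without PI5P4K-depleted replicate 1). The fits without a library hold fewer samples, and the cause of the other differences was not tested. Of 532 member values under the alternatives, 486 kept direction and side, 45 in 20 members changed sign without a call and 0 reversed a call. Replicate 2 was lowest in both groups for 14 to 16 sterol genes under 3 other scalings, and for 5 to 7 fatty acid genes. Depth is unknown, and 3 libraries a group limit the precision.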
